A study of Mus musculus with 6 samples.

Results

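The 43 genes described here are a chosen list from the glutathione and NRF2 antioxidant system, read in B16 melanoma cells. They are the rows of the 6 count tables whose Ensembl identifier carries one of 43 member symbols in GENCODE M21, of 55335 genes in all. The members make and recycle glutathione, use it to reduce peroxides or to tag electrophiles, supply NADPH, or belong to the NRF2 switch and its target enzymes. Of the 43, 38 had enough counts to be tested and 5 did not (Ggt5, Gpx3, Gpx7, Gstt1 and Mgst2).

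Glutathione is the most abundant small thiol of animal cells. Glutamate-cysteine ligase (Gclc, catalytic, and Gclm, modifier) joins glutamate to cysteine and glutathione synthetase (Gss) adds glycine. Glutathione peroxidases and transferases then spend the thiol on peroxides and electrophiles, and glutathione reductase (Gsr) restores it with NADPH. NRF2, encoded by Nfe2l2, is the transcription factor that drives many of these genes through the antioxidant response element, and KEAP1 holds it back by sending it to degradation until electrophiles modify KEAP1. In melanocytes the system also meets the quinones and peroxides that arise during pigment synthesis.

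RNA was measured in 3 cultures of scrambled control and 3 of IFNγR1KO B16-BL6 cells, a mouse melanoma line. Both groups had received the lentiCRISPR v2 vector, which carries Cas9, and had been selected with puromycin; the scrambled guide targets GFP and the IFNγR1KO guides target exon 1 of Ifngr1, the ligand-binding chain of the IFN-γ receptor. Resistant cells were grown from single cells and screened by PD-L1, and the sources used here do not say whether the 3 IFNγR1KO cultures, numbered 10 to 12, are of 1 clone. Cells of each group were plated in triplicate and left overnight, with no IFN-γ treatment described for these samples, so p-values measure the spread between sister cultures, which may be technical. The effect of the receptor loss and of clonal selection cannot be told apart.

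Scrambled control libraries held 9402640 to 10579788 counts on genes and IFNγR1KO libraries 6698956 to 7409479. Values are given as CPM, a gene's counts relative to the TMM-scaled size of its library, and 1 count was worth 0.0966 to 0.142 CPM. The targeted gene, Ifngr1, had 154, 144 and 172 counts in scrambled control and 80, 85 and 82 in IFNγR1KO libraries, a log2 fold change of -0.47 with an adjusted p of 0.0729. All 10 melanocyte lineage markers (Mitf, Sox10, Pmel and others) were detected in every library, with 0 called by edgeR's quasi-likelihood test, 1 by DESeq2 and 3 at an unadjusted p under 0.05, and their summed level was 33130 to 36056 CPM in scrambled control and 29018 to 33895 CPM in IFNγR1KO cells. Of 5 fibroblast markers, Col1a1 and Col1a2 rose, Pdgfra had a log2 fold change of -0.77 without passing the test (adjusted p = 0.0866), the summed level was 57.0 to 75.4 CPM against 129 to 133 CPM, and Dcn and Lum had 0 or 1 count in every library. Leukocyte markers summed to at most 8.36 CPM in any library, and keratinocyte and endothelial markers to at most 0.326 CPM. The part of these differences in the results was not tested. Scrambled control 3 and IFNγR1KO 12 stood apart from their groups by transcript length: the median log2 deviation from the group mean was -0.14 in both over the 2783 genes with the shortest exons, and 0.16 and 0.14 over the 2781 with the longest. Counts of calls are therefore also given without both libraries.

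The 2 largest changes among the members fell on the alpha-class glutathione transferases, whose RNAs are partly alike. The first 120 coding bases of 3 of them in GENCODE M21 (build GRCm38.p6) are shown 5′ to 3′, because they show which transcripts a read can separate; capitals mark bases that differ from Gsta1 at the same position. Gsta1 lies at chr9:78230656-78242684 on the plus strand, Gsta2 at chr9:78331018-78355788 on the minus strand and Gsta3 at chr1:21240589-21265661 on the plus strand.
Gsta1: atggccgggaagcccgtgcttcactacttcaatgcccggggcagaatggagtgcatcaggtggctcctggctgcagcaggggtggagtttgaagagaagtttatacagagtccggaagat
Gsta2: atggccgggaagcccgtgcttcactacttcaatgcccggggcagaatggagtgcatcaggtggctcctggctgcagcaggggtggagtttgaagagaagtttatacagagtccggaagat
Gsta3: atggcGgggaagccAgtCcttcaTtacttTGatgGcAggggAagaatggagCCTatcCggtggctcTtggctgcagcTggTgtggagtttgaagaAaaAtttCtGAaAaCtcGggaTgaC

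Gsta2 differed from Gsta1 at 0 of these 120 bases and Gsta3 at 26. Over the whole coding sequence the identity in a global alignment was 97.6% between Gsta1 and Gsta2 and 73.6% between Gsta1 and Gsta3. Of all 50-base stretches in its exons, Gsta1 shared 90.5% with other genes, chiefly Gm3776, Gsta2 shared 49.8%, Gsta3 0.273% and Gsta4 none. Reads with several alignments, 3.76% to 4.61% of a library, were set aside in the tables, so counts of Gsta1 and Gsta2 rest on the part of each transcript that aligned to a single place, and the level of either gene is uncertain in a way that of Gsta3 and Gsta4 is not.

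Upstream of the start, the 250 bases of the same 3 genes were compared, because the genes moved in opposite directions. The sequences are from RefSeq (GRCm38.p6), 5′ to 3′ on the strand of the gene, and end at the base before the RefSeq start; Gsta1 is at chr9:78230419-78230668 (plus), Gsta2 at chr9:78347146-78347395 (minus) and Gsta3 at chr1:21240335-21240584 (plus). Capitals mark the core of the antioxidant response element, TGACNNNGC on either strand.
Gsta1: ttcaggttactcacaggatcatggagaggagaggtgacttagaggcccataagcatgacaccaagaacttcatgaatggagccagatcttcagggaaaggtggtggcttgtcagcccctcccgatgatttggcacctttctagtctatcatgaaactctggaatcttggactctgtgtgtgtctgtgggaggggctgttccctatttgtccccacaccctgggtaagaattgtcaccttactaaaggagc
Gsta2: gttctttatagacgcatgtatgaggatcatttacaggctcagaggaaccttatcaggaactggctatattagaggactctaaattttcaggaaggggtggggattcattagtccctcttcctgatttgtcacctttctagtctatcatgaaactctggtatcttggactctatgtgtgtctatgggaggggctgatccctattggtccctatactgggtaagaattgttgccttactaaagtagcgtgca
Gsta3: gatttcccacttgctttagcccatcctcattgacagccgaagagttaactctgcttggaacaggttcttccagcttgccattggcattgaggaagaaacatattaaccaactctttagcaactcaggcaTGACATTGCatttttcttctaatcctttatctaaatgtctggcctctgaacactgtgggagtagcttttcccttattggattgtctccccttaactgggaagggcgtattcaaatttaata

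In these windows the identity was 69.7% between Gsta1 and Gsta2, and 46.4% between Gsta1 and Gsta3. The Gsta3 window held the core letters once, beginning 121 bases before the start. They did not occur in the Gsta1 and Gsta2 windows, which says only that these letters are not in these 250 bases. The Gsta2 window lies inside the gene's GENCODE span, whose 5′ end is at chr9:78355788. The core was found in the window of 10 of 37 members that RefSeq's table holds (27.0%), against 3112 of all 27025 gene symbols in it (11.5%). By start rather than by symbol it was 11 of 53 for members (20.8%) and 3338 of 32851 for all (10.2%). Split by call, it was in 2 of 3 members called higher, 2 of 7 called lower, 6 of 23 not called and 0 of 4 not tested. Whether the core goes with the direction of change was not tested. The 10 were G6pdx, Gclm, Ggt1, Gsta3, Gstm5, Mgst1, Nfe2l2, Prdx1, Sod1 and Txnrd1, and the match in Prdx1 overlapped an AP-1 site (TGACTCA on either strand). Gclc, Ggt5, Gsr, Gsta4, Gstt2 and Hmox1 have no entry there.

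The 38 tested members moved in both directions. In edgeR's quasi-likelihood fit, adjusted by Benjamini and Hochberg's method over 13642 genes, 12 members had an adjusted p under 0.05, against 15.3% of all genes tested. Of the 12, 4 were higher in IFNγR1KO cells (Gsta3, Gstk1, Hmox1 and Ggt1; 7.73% of all genes were called higher) and 8 were lower (Gsta2, Gsr, Gstm6, Gsta1, Txnrd1, Gclm, Keap1 and Idh1; 7.62% were called lower). Gsta3, Gsta2 and Gstk1 also passed an absolute log2 fold change of 1 and were DEGs, as were 5.20% of all genes. The groups did not overlap in CPM for 16 of 38 members, 5 higher and 11 lower, and for 32.6% of all genes. Besides the 12, these were Gss, Gclc, Srxn1 and Pgd. The median log2 fold change of the 38 was -0.22 with 13 above and 25 below 0, beside -0.00 over all genes. DESeq2's Wald test called 13 of 40 members, the same 12 and Pgd, against 13.2% of genes.

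**Figure D1:**
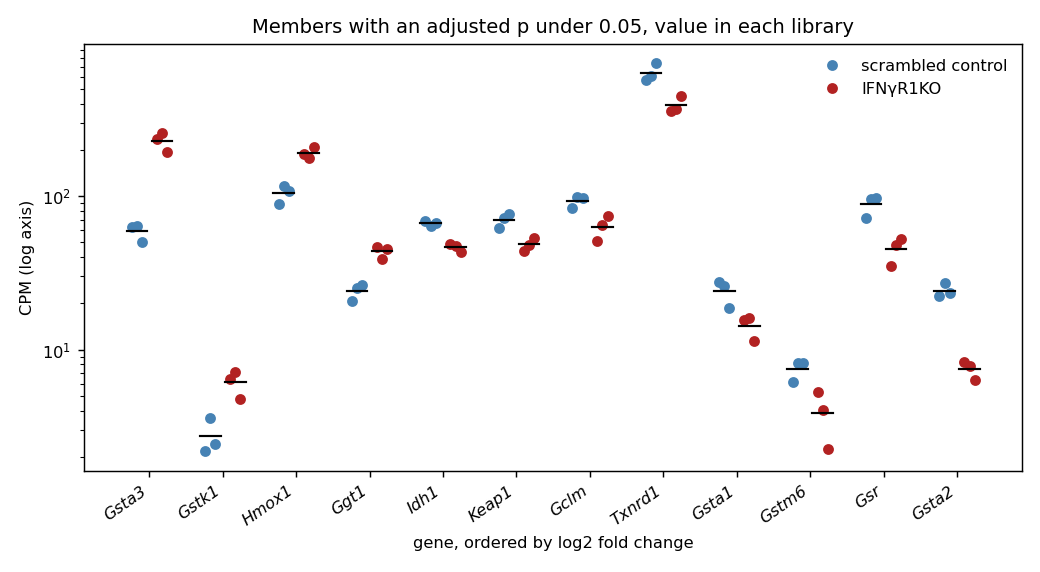
CPM (log axis) of the 12 members with an adjusted p under 0.05 in each of 6 libraries, blue for scrambled control and red for IFNγR1KO; the bar is the mean of 3 libraries. In all 12 genes the 3 libraries of one group lie on one side of the other 3, with Gsta3 at 50.3 to 63.8 CPM against 195 to 257 CPM and Gsta2 at 22.3 to 27.1 CPM against 6.33 to 8.24 CPM.

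Several calls were lost when 1 library was left out. Without IFNγR1KO 11, 5 members were called, 3 higher and 2 lower, and 1028 genes in all against 2093. Without scrambled control 2 or without IFNγR1KO 10, 8 members were called, 4 of them lower, among 1087 and 1095 genes. Without scrambled control 3 and IFNγR1KO 12 together, an alternative added after the data were seen, 15 members were called. That fit gained G6pdx, Gstm1, Pgd and Srxn1 and lost Gstm6. Over all genes, too, more were called lower in that fit than with all libraries. The median of the members was -0.14 without scrambled control 2 and -0.12 without IFNγR1KO 12. Gsta3, Gsta2, Gsr, Ggt1 and Hmox1 were called in every fit that left out 1 library and in the 7 other fits made.

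Among the genes of glutathione synthesis and recycling, 1 of 5 tested members rose and 2 fell, and the median log2 fold change was -0.32. Over all genes, 7.73% were called higher and 7.62% lower, and the median was -0.00. Gsr (ENSMUSG00000031584.16, chr8:33652523-33698163, plus strand), the reductase, was at 72.0, 96.5 and 97.5 CPM in scrambled control libraries and at 34.8, 48.4 and 52.6 CPM in IFNγR1KO libraries. Every IFNγR1KO library was below every scrambled control library. The log2 fold change was -0.97 (standard error, SE, 0.18, adjusted p = 0.00334), with means of 88.7 ± 14.5 and 45.2 ± 9.29 CPM (SD, n = 3). In RNA from a whole culture, fewer cells with a transcript and less of it per cell cannot be told apart.

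The subunits of glutamate-cysteine ligase both had lower values, and only Gclm passed the test. Gclm (ENSMUSG00000028124.15, chr3:122245557-122270732, plus strand) was at 84.0, 98.5 and 97.6 CPM in scrambled control and 51.1, 64.9 and 73.8 CPM in IFNγR1KO libraries. IFNγR1KO 12 came nearest to the control range but stayed below it. It fell by 0.56 on the log2 scale (SE 0.15, adjusted p = 0.0285), and the call was lost without scrambled control 2, IFNγR1KO 10 or IFNγR1KO 11 (adjusted p = 0.109, 0.147 and 0.111) and with scaling by total counts alone (0.0647). Gclc (ENSMUSG00000032350.9, chr9:77754535-77794485, plus strand) was at 88.7, 88.3 and 91.7 CPM and at 75.2, 74.5 and 66.2 CPM. The groups were separate here too, while the log2 fold change of -0.32 (SE 0.13) had an adjusted p of 0.116. Whether Gclm and Gclc differed from each other in their change was not tested. Gss, the synthetase, was at 41.26 to 42.98 CPM in scrambled control and 44.1 to 53.1 CPM in IFNγR1KO libraries (log2 fold change 0.17, adjusted p = 0.445), and 15.4% of its exonic bases overlap exons of the opposite strand.

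Ggt1, a surface enzyme that opens extracellular glutathione so that its cysteine can be taken up again, moved the other way. Ggt1 (ENSMUSG00000006345.10, chr10:75561604-75586200, plus strand) was at 20.7, 25.4 and 26.4 CPM in scrambled control and 46.9, 39.0 and 45.4 CPM in IFNγR1KO libraries. The lowest IFNγR1KO library was well above the highest control. It rose by a log2 fold change of 0.86 (SE 0.15, adjusted p = 0.00266), or 1.81-fold. Its neighbour Ggt5, which acts on leukotriene C4, had 1 count in scrambled control 2 and 0 in the other 5 libraries, where a count of 0 allows up to 3 counts.

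The 250 bases before the start of Gclm (chr3:122245307-122245556, plus strand) and before one of 3 starts of Txnrd1 (chr10:82858956-82859205, plus strand) are given because both are among the best known NRF2 target genes and both fell. They are RefSeq sequences of GRCm38.p6, 5′ to 3′, with the same core letters in capitals, here on the opposite strand.
Gclm: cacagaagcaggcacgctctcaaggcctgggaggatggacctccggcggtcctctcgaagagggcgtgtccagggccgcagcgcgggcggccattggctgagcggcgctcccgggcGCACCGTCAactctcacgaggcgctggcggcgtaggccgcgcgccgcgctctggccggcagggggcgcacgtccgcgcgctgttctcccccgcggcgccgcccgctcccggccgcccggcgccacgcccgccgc
Txnrd1: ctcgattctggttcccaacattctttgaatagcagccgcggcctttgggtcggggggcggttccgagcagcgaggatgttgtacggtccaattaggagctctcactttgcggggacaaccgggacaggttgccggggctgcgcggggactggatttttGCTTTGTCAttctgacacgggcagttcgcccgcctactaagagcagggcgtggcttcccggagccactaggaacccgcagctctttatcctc

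The match began 134 bases before the Gclm start and 92 bases before this Txnrd1 start. The windows before the other two Txnrd1 starts did not hold these letters. A match of letters is no measurement of binding.

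The alpha-class transferases, which also reduce lipid peroxides, changed in both directions at once. Gsta3 (ENSMUSG00000025934.15) was at 63.3, 63.8 and 50.3 CPM in scrambled control and at 236, 257 and 195 CPM in IFNγR1KO libraries. No IFNγR1KO library was below 195 CPM and no control above 63.8 CPM. The log2 fold change of 1.96 (SE 0.16, adjusted p = 1.04e-05), or 3.88-fold, was the largest of the 38 members. Gsta2 (ENSMUSG00000057933.10) was at 22.3, 27.1 and 23.4 CPM in scrambled control and 8.24, 7.86 and 6.33 CPM in IFNγR1KO libraries. It fell by 1.70 on the log2 scale (SE 0.18, adjusted p = 8.56e-05), the largest fall of the 38, with 205 to 272 counts against 45 to 58. Gsta1 (ENSMUSG00000074183.3) was at 27.7, 26.1 and 18.7 CPM and at 15.49, 15.99 and 11.39 CPM. The closest libraries of the groups were scrambled control 3 and IFNγR1KO 11. Its log2 fold change was -0.75 (SE 0.20, adjusted p = 0.0226), and the call was lost without scrambled control 1, scrambled control 2 or IFNγR1KO 11 (adjusted p = 0.0747, 0.0959 and 0.0584). Gsta4, the form with high activity toward 4-hydroxynonenal, was at 20.2 to 26.7 CPM and 15.5 to 20.3 CPM, with overlapping groups (log2 fold change -0.40, adjusted p = 0.136).

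Of the genes that share sequence with Gsta1 and Gsta2, Gm3776 and Gm10639 were looked at, and both had log2 fold changes below 0. Gm3776, at chr9:78257129-78269166, had 94 to 146 counts in scrambled control and 48 to 59 in IFNγR1KO libraries (log2 fold change -0.63, adjusted p = 0.0675). Gm10639, at chr9:78289923-78305525, had 47 to 76 and 11 to 16 counts (log2 fold change -1.73, adjusted p = 0.00223). Both lie between Gsta1 and Gsta2 on chromosome 9. Since these genes share sequence, they do not give independent values.

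Within the alpha class the make-up of the RNA therefore differed between the groups, compared per kilobase of exon. Of the 4 members of the class, Gsta3 made up 17.4% ± 0.101 (SD, n = 3) in scrambled control and 59.9% ± 0.482 in IFNγR1KO cells. The library ranges were 17.3% to 17.5% and 59.4% to 60.4%. The mean share of Gsta1 was 32.1% in scrambled control and 16.9% in IFNγR1KO cells, and that of Gsta2 was 26.6% and 7.21%. Gsta4 held 22.5% to 25.3% and 15.2% to 16.4%. The summed level of the 4 genes was 78.1 ± 9.67 CPM per kilobase in scrambled control and 88.2 ± 12.4 in IFNγR1KO cells, and these overlapped. The exonic length that levels were divided by was 4344 bases for Gsta3 and 956, 1177 and 1266 for Gsta1, Gsta2 and Gsta4. Without that division Gsta3 had a mean of 59.1 CPM in scrambled control and 230 CPM in IFNγR1KO cells. Those of Gsta1, Gsta2 and Gsta4 were 24.1, 24.2 and 23.6 CPM and 14.3, 7.47 and 17.8 CPM. The shares, the sums and their overlap therefore depend on the length used. They also rest on reads that aligned to a single place. Gsta1 and Gsta2 shared 90.5% and 49.8% of their 50-base stretches with other genes and Gsta3 0.273%, so reads of Gsta1 and Gsta2 may be missing. The small SDs of the shares do not measure that uncertainty. Shares of a class sum to the whole and are not independent of each other.

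**Figure D2:**
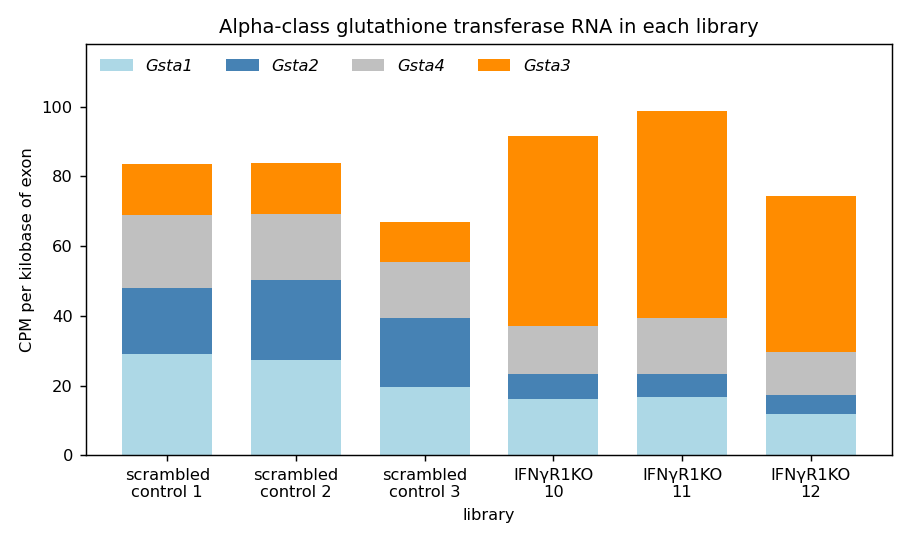
Stacked level of the 4 alpha-class transferases in each library, in CPM per kilobase of exon. Gsta3 (orange) goes from 17.4% to 59.9% of the bar on average, while the height of the bars overlaps between the groups (66.9 to 83.8 in scrambled control and 74.5 to 98.7 in IFNγR1KO libraries). Shares and heights depend on the exonic length each gene is divided by, and on the reads of Gsta1 and Gsta2 that aligned to a single place.

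Among the other transferases, Gstm6 and Gstk1 passed the test. Of 5 mu-class genes, Gstm6 was called, and of 5 tested omega, pi, theta and kappa genes, Gstk1. Each was 20% of its group, near the 15.3% of all genes tested. Gstm6 (ENSMUSG00000068762.11, chr3:107938847-107943749, minus strand) was at 6.19, 8.16 and 8.12 CPM in scrambled control and 5.26, 4.06 and 2.25 CPM in IFNγR1KO libraries, which rest on 16 to 84 counts. IFNγR1KO 10 and scrambled control 1 were close to each other. It fell by 0.96 on the log2 scale (SE 0.28, adjusted p = 0.038), and the call was lost without scrambled control 2 or 3 or IFNγR1KO 11 or 12 (adjusted p = 0.131, 0.0592, 0.111 and 0.0724) and after thinning to the smallest library total (0.0615). Gstm1, Gstm2, Gstm4 and Gstm5 had log2 fold changes between -0.30 and 0.11 with overlapping groups. The 5 mu-class members summed to 208 ± 22.2 and 179 ± 11.7 CPM per kilobase. Gstm1 shared 18.9% of its 50-base stretches with other genes.

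Gstk1, the kappa-class form found in mitochondria and peroxisomes, was the third DEG. Gstk1 (ENSMUSG00000029864.7, chr6:42245935-42250447, plus strand) was at 2.17, 3.58 and 2.42 CPM in scrambled control and 6.39, 7.18 and 4.78 CPM in IFNγR1KO libraries, from 20 to 53 counts. All IFNγR1KO libraries were higher. It rose by 1.16 on the log2 scale (SE 0.28, adjusted p = 0.0142), and without IFNγR1KO 11 the adjusted p was 0.0764. Gstp1, the pi-class form and by far the most abundant transferase, was at 951 to 1106 CPM and 858 to 996 CPM (log2 fold change -0.17, adjusted p = 0.5). It made up 64.4% ± 1.63 of the RNA of the 18 transferase members per kilobase in scrambled control and 62.3% ± 0.661 in IFNγR1KO cells. Like those of the alpha class, these shares depend on the exonic length and on how much of each transcript aligns to a single place. Gstp2, which is not a member, was at 99.7 and 75.3 CPM per kilobase, and Gstp1 shared 33.7% of its 50-base stretches with it. Gsto1 (0.05), Gstt2 (0.86, adjusted p = 0.133) and Gstt3 (0.04) were not called, nor were the microsomal forms Mgst1 (0.05) and Mgst3 (0.32). Gstt1 had 0 to 10 counts and Mgst2 2 to 16.

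**Figure D3:**
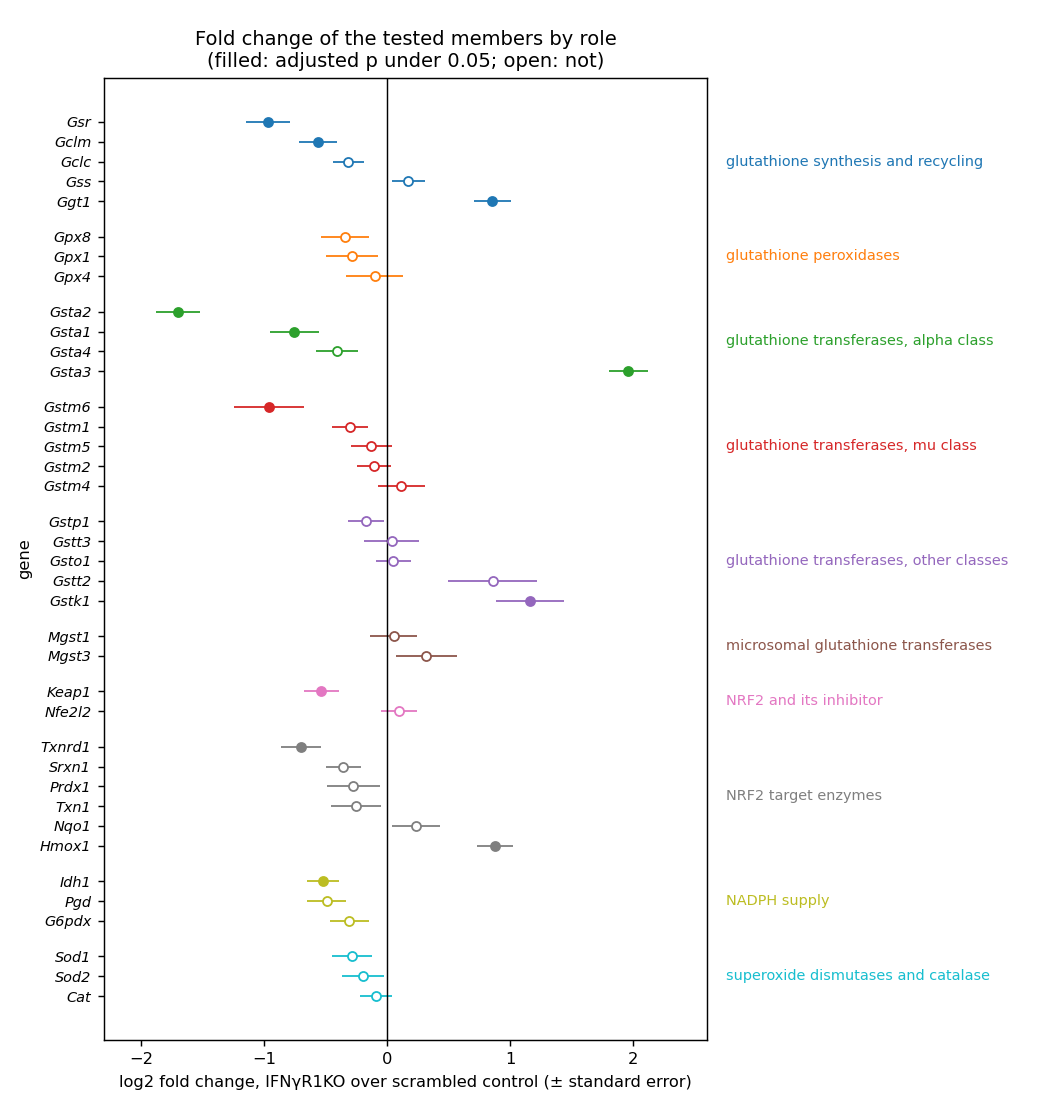
Log2 fold change of IFNγR1KO over scrambled control with its standard error for the 38 tested members, grouped by role; filled points have an adjusted p under 0.05. The span is widest in the alpha class, from -1.70 to 1.96, and the 3 peroxidases, 2 microsomal transferases and 3 superoxide and catalase genes are all open points between -0.34 and 0.32. Of all genes tested, 15.3% had an adjusted p under 0.05.

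Of 3 peroxidases and 3 superoxide and catalase genes tested, 0 were called by edgeR's quasi-likelihood test or by DESeq2, and 0 had an unadjusted p under 0.05. Over all genes edgeR called 15.3% and DESeq2 13.2%, so 0 of so few genes does not set these classes apart. Gpx4, which reduces phospholipid peroxides and so protects from ferroptosis, was at 611 to 1027 CPM in scrambled control and 579 to 943 CPM in IFNγR1KO libraries (log2 fold change -0.10, standard error 0.23, adjusted p = 0.824), and shared 34.7% of its 50-base stretches, mostly with the pseudogene Gpx4-ps2. Gpx1, the main cytosolic form, had a log2 fold change of -0.29 and Gpx8, a form of the endoplasmic reticulum, of -0.34. In each of the 3 the lowest libraries of the groups were scrambled control 3 and IFNγR1KO 12, which stood apart by transcript length. Gpx4 made up 68.4% ± 1.75 of the RNA of the 5 peroxidase members per kilobase in scrambled control and 71.4% ± 0.724 in IFNγR1KO cells. The exonic length and the shared stretches limit these shares too. Gpx3, the secreted form, had at most 5 counts, and Gpx7 had 0 counts in every library, which allows up to 3. Sod1 (-0.29), Sod2 (-0.20) and Cat (-0.09), which dismutate superoxide and split hydrogen peroxide, had overlapping groups and adjusted p-values of 0.273, 0.493 and 0.714.

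NRF2 and its inhibitor were read separately. Nfe2l2 (ENSMUSG00000015839.6, chr2:75675513-75704641, minus strand) was at 88.4, 94.7 and 113 CPM in scrambled control and 110, 91.7 and 114 CPM in IFNγR1KO libraries. The groups overlapped, and the log2 fold change was 0.09 (SE 0.15, adjusted p = 0.73). Keap1 (ENSMUSG00000003308.15, chr9:21229730-21239361, minus strand) was at 62.1, 72.0 and 76.8 CPM and at 44.0, 47.8 and 53.7 CPM. All IFNγR1KO libraries were lower. It fell by 0.54 on the log2 scale (SE 0.14, adjusted p = 0.0235), and the call was lost without scrambled control 2 or 3 or IFNγR1KO 10 or 11 (adjusted p = 0.0836, 0.0588, 0.118 and 0.116) and with scaling by total counts alone (0.0573). Exons of the opposite strand overlap 10.9% of the exonic bases of Keap1. NRF2 is regulated mainly through its protein, which these data did not measure.

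The 6 NRF2 target enzymes did not move one way. Hmox1 was called higher and Txnrd1 lower, beside 7.73% and 7.62% of all genes tested. Hmox1 (ENSMUSG00000005413.8, chr8:75093621-75100589, plus strand), heme oxygenase, was at 88.4, 116 and 108 CPM in scrambled control and 188, 177 and 210 CPM in IFNγR1KO libraries. Every IFNγR1KO library was higher, and it rose by 0.88 on the log2 scale (SE 0.15, adjusted p = 0.00193), or 1.84-fold. Txnrd1 (ENSMUSG00000020250.10, chr10:82833951-82897712, plus strand), the cytosolic thioredoxin reductase, was at 573, 603 and 734 CPM and at 357, 368 and 451 CPM. Every IFNγR1KO library was lower, and it fell by 0.70 (SE 0.16, adjusted p = 0.0115), with an adjusted p of 0.0668 without IFNγR1KO 10 and 0.0833 without IFNγR1KO 11. Nqo1 (ENSMUSG00000003849.8, chr8:107388225-107403206, minus strand), the quinone reductase, was at 22.1, 18.6 and 16.8 CPM and at 25.9, 25.5 and 16.4 CPM. IFNγR1KO 12 was below all controls while the other two were above them (log2 fold change 0.24, standard error 0.20, adjusted p = 0.471). Srxn1 (ENSMUSG00000032802.8, chr2:152105516-152111376, plus strand), which repairs overoxidised peroxiredoxins, was at 195, 247 and 238 CPM and at 172, 171 and 188 CPM. The groups did not overlap, and the log2 fold change was -0.36 (SE 0.14, adjusted p = 0.111). Without scrambled control 3 and IFNγR1KO 12 it was -0.37 with an adjusted p of 0.0343. Txn1 (-0.25) and Prdx1 (-0.28), thioredoxin and a peroxiredoxin, were not called.

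The 3 NADPH suppliers all had log2 fold changes below 0, and Idh1 passed the test. Of all genes tested, 7.62% were called lower. Idh1 (ENSMUSG00000025950.16, chr1:65158616-65186500, minus strand), the cytosolic NADP isocitrate dehydrogenase, was at 69.0, 63.8 and 66.8 CPM in scrambled control and 48.9, 47.0 and 43.3 CPM in IFNγR1KO libraries. The spread within each group was small beside the gap between them. It fell by 0.52 (SE 0.13, adjusted p = 0.0171), and the adjusted p was 0.0514, 0.0518 and 0.0879 without scrambled control 1, IFNγR1KO 10 or IFNγR1KO 11. Pgd and G6pdx, the dehydrogenases of the pentose phosphate pathway, had log2 fold changes of -0.49 (adjusted p = 0.0522) and -0.31 (adjusted p = 0.217).

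Compared per kilobase of exon, the levels of the members spanned a wide range. In scrambled control cells Txn1 (884 ± 199 CPM per kilobase), Gstp1 (675 ± 53.8), Prdx1 (650 ± 145) and Gpx4 (511 ± 135) led (SD, n = 3), and mean ± SD overlapped between neighbours among these 4. That spread holds variation between libraries which the genes share, and within libraries Txn1 was above Gstp1 and Prdx1 above Gpx4 in all 6. Gpx1 (168 ± 41.3) followed below them, and the first 5 places were the same in IFNγR1KO cells. Of 43 members, Gsta3 moved from place 28 to place 12, from 13.6 ± 1.75 to 52.9 ± 7.27 CPM per kilobase, and Hmox1 from place 12 to place 6, from 59.5 ± 8.19 to 109 ± 9.67. Gsta2 went from place 24 to 32, with 20.6 ± 2.14 and 6.35 ± 0.86 CPM per kilobase. The lowest member, Gpx7, was at 0. Places also depend on the exonic length and on how much of a transcript aligns to a single place.

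**Figure D4:**
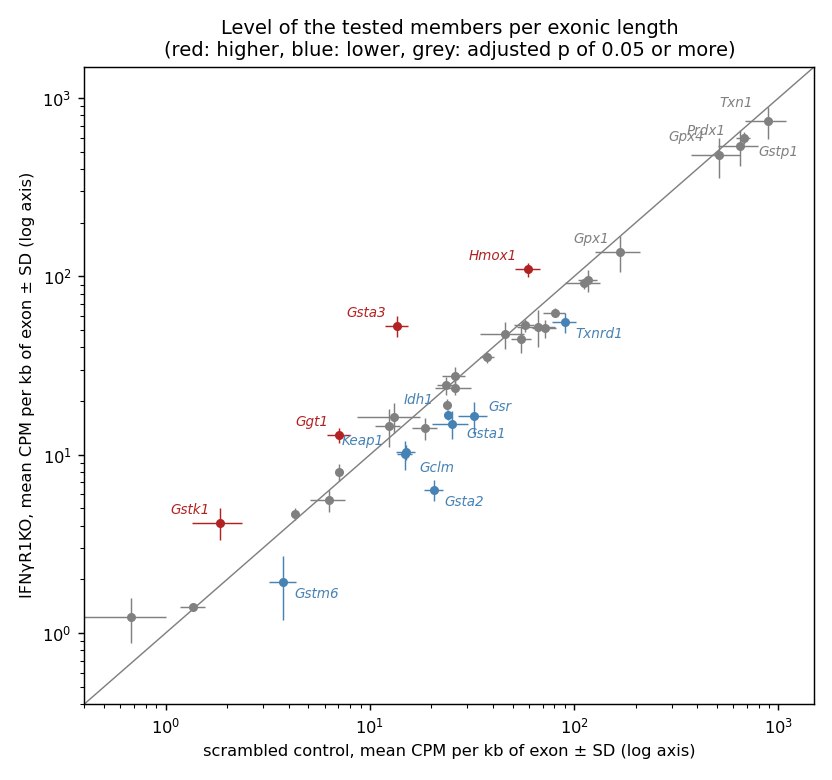
Mean level of the 38 tested members in CPM per kilobase of exon in scrambled control (x) and IFNγR1KO cells (y), both log axes, with SD over 3 libraries; the line marks equal levels. The 4 most abundant members lie near the line, and Gsta3, at 13.6 and 52.9, lies farthest above it.

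Further genes of the pathway, from 4 lists, were read in the same fit. Of 11 tested genes of cysteine supply and glutathione turnover, 4 rose and 0 fell by edgeR's quasi-likelihood test, all 4 as DEGs. Of all genes, 7.73% were called higher, 7.62% were called lower and 5.20% were DEGs. The other 7 genes of the list lay between -0.28 and -0.00. DESeq2 called 4 higher and 0 lower, and 0 lower genes had an unadjusted p under 0.05. Slc7a11, the cystine and glutamate exchanger, was at 28.0, 22.0 and 31.6 CPM in scrambled control and 83.0, 92.0 and 99.4 CPM in IFNγR1KO libraries (log2 fold change 1.75, adjusted p = 2.59e-05). Cth, which makes cysteine from cystathionine, was at 18.8, 16.4 and 13.6 CPM and at 94.2, 82.5 and 67.1 CPM (2.32, adjusted p = 5.79e-06). Chac1, which degrades glutathione in the cytosol, was at 42.6, 47.4 and 38.8 CPM and at 214, 218 and 197 CPM (2.29, adjusted p = 8.01e-07). The fourth was Slc3a2, the partner chain of Slc7a11. In all 4 the groups were far apart, and the 3 genes given with values were called in every fit made.

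The other 3 lists are read against the same shares of all genes, 7.73% called higher and 7.62% called lower. Of 7 further transferases and peroxidases, Gstz1 rose (0.51, adjusted p = 0.0483) and Hpgds, the sigma-class form that makes prostaglandin D2, fell by 1.22 (adjusted p = 0.000236). Of 15 further thioredoxin, glutaredoxin, peroxiredoxin and superoxide dismutase genes, 0 rose by edgeR's quasi-likelihood test, by DESeq2 or at an unadjusted p under 0.05, and 2 fell, Glrx by 1.63 (adjusted p = 0.00127) and Prdx6 by 0.54 (adjusted p = 0.017). The 2 of 15 called were 13.3% of that list, near the 15.3% of all genes. Of 27 NRF2 partners and further NRF2 target genes, 2 rose and 5 fell, in all 25.9% of the list. Sesn2 (1.53, adjusted p = 3.97e-05) and Nfe2l1, a relative of NRF2 (1.23, adjusted p = 0.000577), were higher, and Cbr3 (-0.89, adjusted p = 0.00447), Maff, a small partner of NRF2 (-0.76, adjusted p = 0.0332), and Ugdh (-0.72, adjusted p = 0.00477) led those that were lower. Gstz1, Prdx6 and Maff lost the call without scrambled control 2 (adjusted p = 0.152, 0.0652 and 0.145), IFNγR1KO 10 (0.225, 0.0821 and 0.142) or IFNγR1KO 11 (0.128, 0.0722 and 0.0591), and Gstz1 also without scrambled control 3 (0.117). The lists were put together with earlier results of these data known, so the counts are a description.

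**Figure D5:**
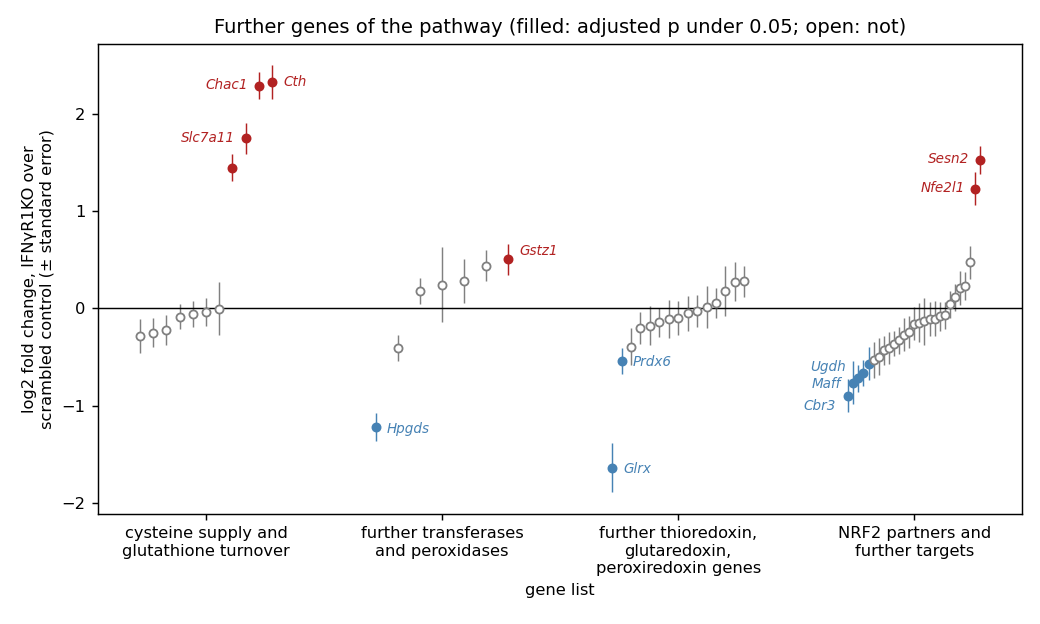
Log2 fold change of IFNγR1KO over scrambled control with its standard error for the tested genes of 4 further lists; filled points have an adjusted p under 0.05, red where higher and blue where lower. In the cysteine list 4 filled points stand between 1.45 and 2.32 and the other 7 lie near 0, whereas Glrx is lowest of all at -1.63.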

How the data were processed

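Poly(A)-selected RNA of 3 scrambled control and 3 IFNγR1KO cultures was sequenced with paired ends. With STAR 2.7.5a the authors mapped reads to GRCm38, and they deposited gene counts made with HTSeq 0.11.2, 1 table per library, as raw numbers; the annotation release and strand setting of the counting are not given in the sources used here, so overlapping antisense genes may share counts. The authors tested with DESeq2 1.34.0. Lines of the tables that name no gene held 53.0% to 54.0% of reads and were left out. Most of these, 46.9% to 47.7% of a library's reads, fell in no annotated feature, and the cause was not tested.

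From these deposited counts, CPM, fold changes and p-values were computed in R 4.3.3 with edgeR 4.0.16: filterByExpr (minimum count 10, minimum total 15), TMM scaling, and the quasi-likelihood test, adjusted by Benjamini and Hochberg's method over all 13642 genes kept. This design used a test other than the authors' DESeq2, which was run in version 1.42.0 as an alternative. GENCODE M21 held 55154 of 55335 identifiers and gave symbols, positions and exonic lengths. A gene with an adjusted p under 0.05 was called, and with an absolute log2 fold change above 1 it was a DEG. Standard errors of edgeR's fold changes were derived, as the absolute log2 fold change divided by the square root of the quasi-likelihood F statistic. Depth set the precision of low genes, where 1 count was worth up to 0.142 CPM. The scripts were tested on simulated counts. Stretches of 50 bases shared between the exons of different genes were counted in Python 3.11.15, and sequences aligned with Biopython 1.88.

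Values in every library are given for members with an adjusted p under 0.05 and for Gclc, Gclm, Nfe2l2, Keap1, Nqo1, Hmox1, Txnrd1 and Srxn1, and in each further list up to 3 genes per direction are named by size of change. Members and lists were chosen with earlier results of these data known. Gsta5 was in no annotation row, and of 2 identifiers of Nnt the one with more counts was used. Alternatives were other scalings, filters, thresholds, thinning to the smallest library, and leaving out libraries.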

Additional observations from a re-analysis of the deposited data

How the results depend on the processing

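No paired analysis was possible because the groups share no replicate numbers. Of 12 members called, 5 remained past an adjusted p of 0.01 (2 of the 8 lower) and 3 past a log2 fold change of 1 (2 higher, 1 lower). Over all genes these limits left 871 (454 higher, 417 lower) and 710 (443 higher, 267 lower) of 2093. Leaving out 1 library at a time gave 5 to 14 members called, 3 to 5 higher and 2 to 9 lower, and 1028 to 2824 genes, 535 to 1372 higher and 457 to 1452 lower. Members' medians then ranged from -0.27 to -0.12 on the log2 scale. Without scrambled control 3 and IFNγR1KO 12 together, which was added after the data were seen, 1617 genes were lower, against 1039 with all libraries. Fewer libraries enter those fits, and beyond that the cause was not tested. Scaling by total counts alone moved the median of all genes to 0.05 and left 10 members called. Thinning left 11, no filter gave 14, and DESeq2 gave 13. Among the genes given with values in every library, the further genes named and Ifngr1, no log2 fold change changed sign. Over these genes and the medians of the role groups, 468 values were held to be the same. For a gene this meant the same direction and side of the threshold. For a median it meant a shift smaller than the spread between libraries, whatever its sign. In these genes 35 calls were lost and 1 was gained, and 3 medians of role groups moved by more than the spread allows. Of the other members, Pgd, Gstt2, G6pdx and Gstm1 gained a call under at least 1 alternative. Members with under 100 counts in a library, such as Gstk1 and Gstm6, are limited by depth.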
